A study of Mus musculus with 2 samples.

Results

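Deep dermal and fascia fibroblasts were studied in E14.5 mouse skin, a stage of early hair follicle formation. They were taken from the cells that the authors list as dermal. A cell was a member if at least 2 of Clec3b, Mfap5, Nrk, Akap12 and Itm2a were detected (at least 1 UMI, a counted molecule). That number also had to exceed the number detected of 5 upper genes (Crabp1, Egfl6, Pth1r, Lix1, Penk) and of 5 genes of a class marked by Aspn (Aspn, Angptl1, Fibin, Nppc, Mfap4). In addition, fewer than 3 of 8 Wnt-response genes (Axin2, Lef1, Nkd1, Nkd2, Dkk1, Apcdd1, Notum, Tcf7) could be detected. The rule gave 885 members among 5028 dermal cells of the Wntless mutant library and 666 among 5300 of the wildtype library, 1551 of 10328 in all and of 19514 barcodes in the series. The mutants carried K14Cre together with floxed Wntless (Wntless fl/fl), and the other library came from littermates labelled wildtype. Wntless (Wls) carries Wnt proteins to the cell surface, and K14Cre is active in the keratinocytes of the epidermis, so the members are not the cells in which this Cre is driven. Each library pooled 2 to 3 embryos of 1 genotype from dorsolateral and flank skin, dissociated with trypsin, stained with DAPI, sorted and profiled by 10x Chromium 3' single-cell RNA sequencing.

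The fascia is the loose connective tissue under the dermis. Its fibroblasts carry surface proteins such as Dpp4 (CD26) and Ly6a (Sca-1), make the matrix of the skin's deep layers, and in adult mouse skin are known as a source of cells that fill wounds. The dermis above them receives Wnt signals from the epidermis, and Wnt signalling in upper dermal cells is required for hair follicles to form. Of the 5 genes that define the members, Clec3b encodes tetranectin, a secreted plasminogen-binding protein. Mfap5 encodes a glycoprotein of elastic microfibrils, Nrk a protein kinase, Akap12 a scaffold that anchors protein kinase A, and Itm2a a membrane protein.

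The promoters of Nrk and Itm2a, which define the class, and of Dpp4, a fascia gene that differed between the libraries, are shown because the levels below concern their transcripts. Each sequence is the stretch from 250 bases before to 50 bases after the gene's start, from RefSeq on build GRCm38.p6, on the gene's own strand. Nrk lies at chrX:138914180-138914479 (+ strand), Itm2a at chrX:107403311-107403610 (- strand) and Dpp4 at chr2:62412182-62412481 (- strand). Capitals mark the letters TATAAA on either strand.
Nrk: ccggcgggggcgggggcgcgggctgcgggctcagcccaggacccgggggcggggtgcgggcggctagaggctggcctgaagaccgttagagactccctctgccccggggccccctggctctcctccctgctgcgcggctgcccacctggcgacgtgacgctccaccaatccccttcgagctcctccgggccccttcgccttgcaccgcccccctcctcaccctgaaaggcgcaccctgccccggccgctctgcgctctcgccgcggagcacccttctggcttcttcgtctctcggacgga
Itm2a: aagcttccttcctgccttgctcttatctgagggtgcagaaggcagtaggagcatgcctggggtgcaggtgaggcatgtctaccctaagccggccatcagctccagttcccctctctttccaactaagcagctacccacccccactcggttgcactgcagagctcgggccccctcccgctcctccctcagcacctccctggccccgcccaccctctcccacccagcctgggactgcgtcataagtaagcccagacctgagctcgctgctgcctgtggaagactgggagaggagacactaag
Dpp4: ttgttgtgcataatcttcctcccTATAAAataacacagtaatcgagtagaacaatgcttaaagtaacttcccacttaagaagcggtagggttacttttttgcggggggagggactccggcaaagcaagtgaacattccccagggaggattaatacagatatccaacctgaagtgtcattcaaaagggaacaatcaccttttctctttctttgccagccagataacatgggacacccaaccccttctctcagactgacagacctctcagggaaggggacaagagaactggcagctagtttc
The letters TATAAA or their reverse complement TTTATA stood in the Dpp4 window, and in 13.6% of 32851 RefSeq promoters of this length. CTTTGAT, the core that Tcf and Lef factors bind, and its reverse complement ATCAAAG were searched in the same way and stood in 3.73% of promoters, with no match in these 3 windows. A match is a description of the letters only.

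The members held 14078451 UMIs in the mutant and 7054518 in the wildtype library. A median mutant member had 15516 UMIs, 3937 genes and 2.71% mitochondrial UMIs, against 10159.5 UMIs, 3092 genes and 2.15% in wildtype. Because the rule counts detected genes, shares of cells are given also with every cell thinned to 9000 UMIs and shallower cells left out, 367 mutant and 1300 wildtype dermal cells. Levels are UMIs of a gene summed over the members of a library scaled to the total UMIs of those members (CPM, a unit of relative abundance), and every interval is a 95% interval for counting error only. With 1 library for each genotype there was no replicate check and no test of any difference, and a difference between the libraries cannot be told apart from one between these pools of embryos. Xist had 1 UMI in mutant and 21 in wildtype members, while Y-linked Ddx3y had 73.5 CPM in mutant and 76.8 CPM in wildtype members. No barcode of a member was shared between the libraries, while 19 of all barcodes were.

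The label was checked against marker lists. General fibroblast genes were high, with Col1a1 at 5470.1 CPM in mutant and 5535 CPM in wildtype members, and 884 of 885 mutant and 666 of 666 wildtype members had at least 3 of 7 such genes. Summed markers of keratinocytes (3.27 and 6.66 CPM), macrophages (4.47 and 4.39 CPM), mast cells (7.03 and 3.26 CPM), Schwann cells (2.70 and 2.98 CPM) and melanoblasts (5.90 and 4.25 CPM) were low in mutant and wildtype members. Muscle markers summed to 2.77 CPM in mutant and 24.1 CPM in wildtype members, with 85.0% of the wildtype Ttn from 1 cell. Erythroid markers summed to 3601 CPM in mutant and 1203 CPM in wildtype members, and 9 mutant members and 1 wildtype member had at least 1% haemoglobin UMIs. Of the mural markers, Rgs5 had 5 UMIs in mutant and 0 in wildtype members and Higd1b had 0 in both, although the list summed to 189 and 208 CPM. The endothelial list summed to 79.6 CPM in mutant and 47.2 CPM in wildtype members and is described with the genes that carry it below.

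The deep fibroblasts made up a larger share of the listed dermal cells in the mutant than in the wildtype library. The share was 17.6% (16.6 to 18.7) in the mutant and 12.6% (11.7 to 13.5) in wildtype, and 19.2% (18.04 to 20.3) and 11.97% (10.98 to 13.02) after thinning. Among cells with fewer than 3 Wnt genes, the pool from which members could come, the shares were 24.9% (23.5 to 26.4) in the mutant and 24.9% (23.3 to 26.6) in wildtype. After thinning these stood at 22.1% (20.8 to 23.4) and 20.8% (19.2 to 22.6). The difference in share was thus seen over all dermal cells and was within counting error over this pool. Cells with 3 or more Wnt genes, called Wnt-active cells here, were 29.4% of mutant and 49.6% of wildtype dermal cells, and 13.4% and 42.5% after thinning. Cells led by the 5 upper genes (upper-marker cells) and by the Aspn genes (Aspn-marker cells) also took larger shares of all dermal cells in the mutant, at 29.1% against 20.7% and at 12.8% against 10%, and after thinning at 42.4% against 29.6% and at 13.1% against 8.75%. Since shares sum to a whole and cell yield was not measured, more deep cells cannot be told apart from fewer Wnt-active cells.

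**Figure D1:**
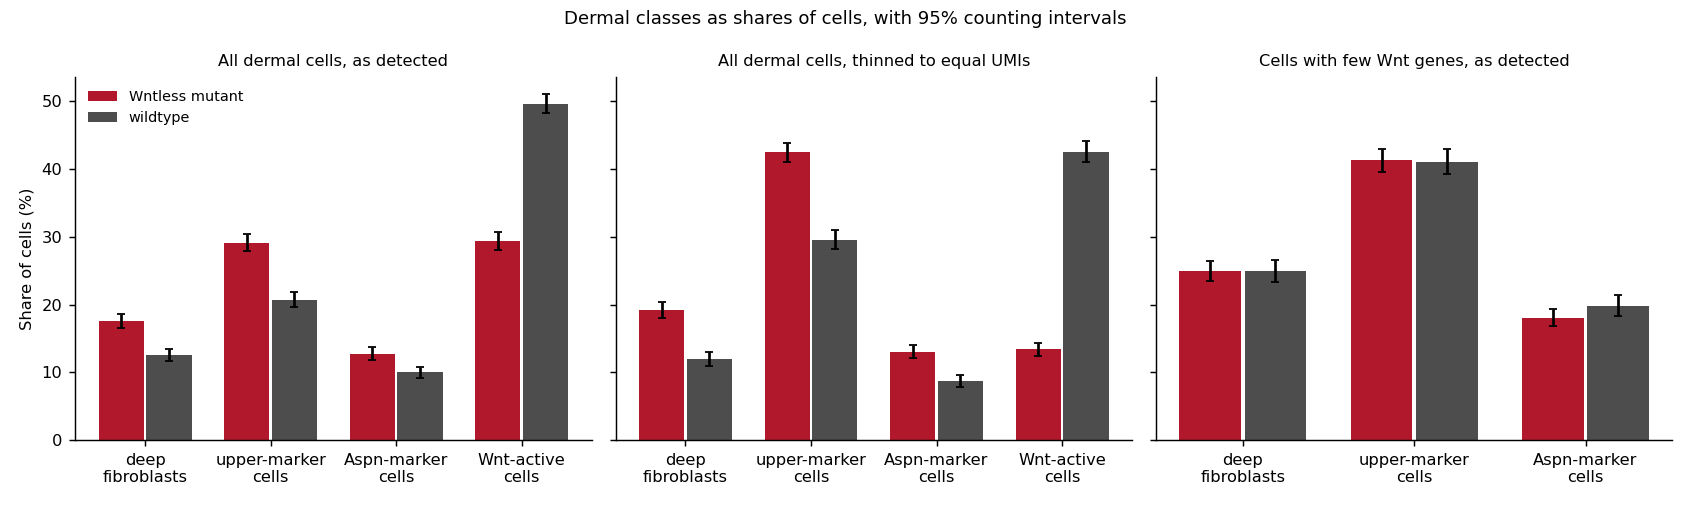
Shares of cells (%, y axis) in 4 dermal classes, mutant bars left of wildtype bars, with 95% counting intervals. Deep fibroblasts are 17.6% of mutant and 12.6% of wildtype dermal cells in the left panel and 24.9% in both libraries in the right panel, where cells with 3 or more Wnt genes are left out.

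Most members carried nearly the whole set of defining genes. All 5 were detected in 712 mutant members (80.5%) and 425 wildtype members (63.8%), and 0 mutant and 5 wildtype members had exactly 2. These genes chose the cells, so their levels are a description. Counts of transcript 3' ends do not scale with transcript length, but how well each gene was captured was not measured. An order of genes by CPM is thus one of counted UMIs. Itm2a was the highest by this order, with 3384 CPM in mutant and 3028 CPM in wildtype members. Nrk had 1081 CPM in mutant and 998 CPM in wildtype members, Clec3b 764 CPM in mutant and 548 CPM in wildtype members, Akap12 673 CPM in mutant and 638 CPM in wildtype members and Mfap5 408 CPM in mutant and 335 CPM in wildtype members. Clec3b stood above Akap12 in mutant members and below it in wildtype members. When members were chosen by the other 4 genes, Mfap5 still stood at 397 CPM in 722 mutant cells and 325 CPM in 587 wildtype cells, against 33.7 and 13.3 CPM in the other dermal cells. This fold was the widest of the 5 genes in each library. Left out in the same way, Akap12 stood at 693 CPM in mutant and 667 CPM in wildtype cells, against 109 and 94.3 CPM. Itm2a stood at 3642 CPM in mutant and 3372 CPM in wildtype cells, against 613 and 361 CPM.

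Cells at the edge of the rule graded into the rest of the dermis. The lead over the upper and Aspn genes was a single gene in 264 mutant and 202 wildtype members, and 322 mutant and 263 wildtype cells just outside were tied. Just inside, Mfap5 stood at 302 CPM in mutant and 173 CPM in wildtype cells. Just outside it stood at 90.2 CPM in mutant and 55.8 CPM in wildtype cells. The rule counts Mfap5, so a fall in it across the edge follows in part from the choice of cells. Dpp4, which the rule did not use, had 38.4 CPM just inside and 7.75 CPM just outside in the mutant, and 12.4 and 4.76 CPM in wildtype. A further 42 mutant and 28 wildtype cells met every condition but the limit on Wnt genes.

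Against all other dermal cells, the members were higher in genes of fascia fibroblasts and in some vessel-related genes (Tek, Cdh5 and Kcnj8). They were lower in cell-cycle genes, which were also low in Aspn-marker cells. This comparison is a description, since the rule drew on the same cells. Of 12589 genes measured (20 or more UMIs, rule genes left out), 1838 were at least 1.5-fold higher in the members in both libraries (14.6%) and 1071 at least 1.5-fold lower in both (8.51%), with medians over all genes of 0.040 in the mutant and 0.017 in wildtype on the log2 scale. Among 20 genes listed for fascia progenitors, 18 were higher and 2 lower in both libraries, and the list medians were 2.38 in the mutant and 2.72 in wildtype. Pi16, a secreted peptidase inhibitor, had 30.6 CPM in mutant members and 1.19 CPM in the other dermal cells, and 32.9 CPM in wildtype members and 0.806 CPM in the other dermal cells. Dpp4, a surface peptidase, had 65.8 CPM in mutant members and 2.79 CPM in the other dermal cells, and 32.3 CPM in wildtype members and 1.11 CPM in the other dermal cells. Ly6a had 72.9 CPM in mutant members and 2.10 CPM in the other dermal cells, and 63.4 CPM in wildtype members and 0.842 CPM in the other dermal cells. These 3 genes thus stood more than 20-fold higher in the members of each library. They were nonetheless detected in a minority of members after thinning. Dpp4 was seen in 32.2% (29.03 to 35.6) of mutant and 19.96% (16.3 to 23.97) of wildtype members, and Pi16 in 18.6% (16.01 to 21.5) and 16.6% (13.3 to 20.4). In non-dermal cells, where such detection gives a level for free RNA, the highest of 4 classes (muscle, keratinocytes, endothelium, macrophages) had Dpp4 in 2.35% (2 of 85) of mutant and 4.08% (2 of 49) of wildtype cells and Pi16 in 0.667% (2 of 300) and 0.395% (1 of 253). Thy1, a surface protein on the same list, went the other way, with 24.4 CPM in mutant members and 68.4 CPM in the other dermal cells, and 32.6 CPM in wildtype members and 129 CPM in the other dermal cells.

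Ranked by the smaller of the 2 libraries' ratios, the highest gene was Ren1, which encodes renin, the protease that cleaves angiotensinogen. It had 40.1 CPM in mutant members and 0.611 CPM in the other dermal cells, a 65.6-fold ratio, and 46.2 CPM in wildtype members and 0.734 CPM in the other dermal cells, a 62.9-fold ratio. It was detected in 15.9% (13.5 to 18.6) of thinned mutant members and 12.1% (9.23 to 15.5) of wildtype members, against at most 0.287% (1 of 349) of mutant and 4.08% (2 of 49) of wildtype cells in the same 4 classes. The rest of the 20 highest genes included Col5a3 (a collagen V chain), Plac8, Efhd1 (a mitochondrial calcium-binding protein), S100b (a calcium-binding protein), Prph (the intermediate filament peripherin), Dsc2 (a desmosomal cadherin) and Prss23 (a serine protease). Their log2 ratios ran from 4.51 for Prss23 to 5.27 for Col5a3 in the mutant. In wildtype they ran from 5.11 for S100b to 6.08 for Plac8. Pi16, Dpp4 and Ly6a, given above, and Tek, Akr1c14, Wfdc18, Gdpd2, Lypd2, Pi15, Nell1, Chl1 and Ecrg4 were also in this set.

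**Figure D2:**
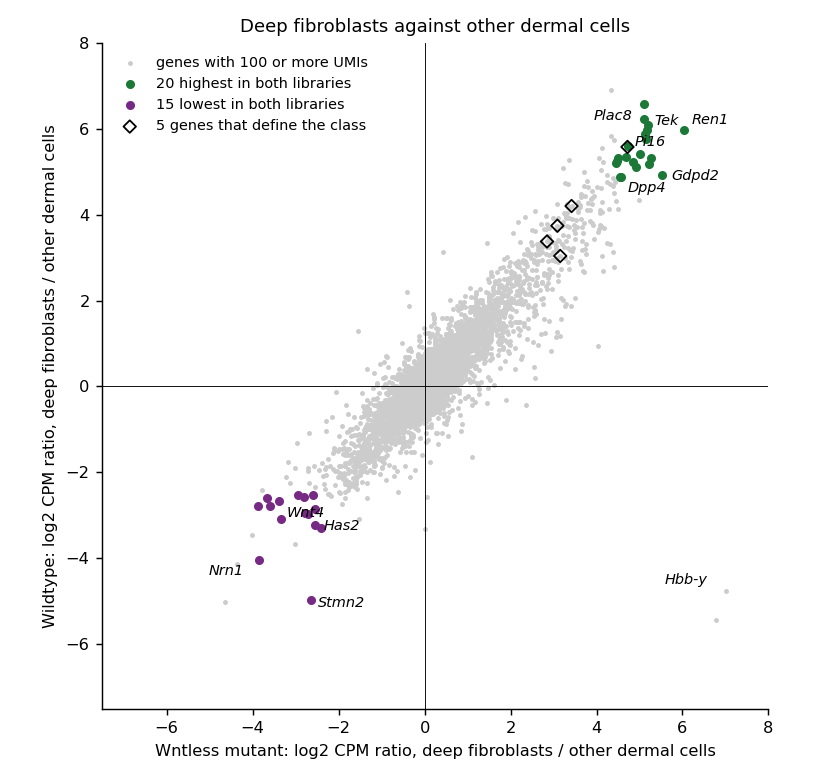
Each point is a gene, with its log2 CPM ratio of deep fibroblasts over other dermal cells in the mutant (x axis) and wildtype (y axis) library. The 20 highest genes lie at the upper right with Ren1 at 6.03 and 5.98, and the 15 lowest at the lower left with Nrn1 at -3.85 and -4.05. Hbb-y, at the lower right, is a haemoglobin gene whose mutant UMIs came to 67.4% from 1 cell.

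Tek and Cdh5, genes best known from blood vessels, were among those that marked the members. Tek encodes Tie2, the angiopoietin receptor, and had 48.4 CPM in mutant members and 1.34 CPM in the other dermal cells, and 24.5 CPM in wildtype members and 0.394 CPM in the other dermal cells. Cdh5, the cadherin of endothelial junctions, had 20.2 CPM in mutant members and 0.700 CPM in the other dermal cells, and 11.6 CPM in wildtype members and 0.305 CPM in the other dermal cells. After thinning, Tek was detected in 30.6% (250 of 816) of mutant and 18.8% (84 of 446) of wildtype members, against 0.0751% (1 of 1331) and 0 of 774 upper-marker cells. Cdh5 was detected in 13.2% (108 of 816) of mutant and 9.42% (42 of 446) of wildtype members, against 0 of 1331 and 0.129% (1 of 774) upper-marker cells. Detection of both genes was therefore far more frequent in members than in these neighbouring fibroblasts. Of the other 5 genes on the endothelial list, 4 were at or near 0 in the members and Egfl7 was not. Pecam1 had 2 UMIs in mutant and 2 in wildtype members, Cldn5 had 3 and 0, Emcn had 7 and 2, and Kdr had 8 and 7. Egfl7, a secreted protein of endothelial cells, had 9.66 CPM in mutant and 9.50 CPM in wildtype members. Unlike Tek and Cdh5, Egfl7 was at least 1.5-fold lower in the members than in the other dermal cells of both libraries. Of the 313 mutant and 114 wildtype thinned members with Cdh5 or Tek, 2 in each library had any of Pecam1, Cldn5, Emcn and Kdr and 0 had at least 2 of them. Of the 7 vascular mural genes, Rgs5 and Higd1b were at or near 0 and 5 were not. Kcnj8 and Abcc9, which form a potassium channel of pericytes, stood at 89.4 CPM in mutant and 111 CPM in wildtype members and at 35.7 CPM in mutant and 28.4 CPM in wildtype members. The log2 ratios of Kcnj8 over other dermal cells were 3.61 in the mutant and 4.18 in wildtype. Most of the mural list did not set the members apart. Of 5 mural genes measured, 2 were at least 1.5-fold higher in the members in both libraries, 0 were lower and 3 were neither. Over all genes 14.6% were higher and 8.51% lower in both. The list medians were -0.036 in the mutant and 0.149 in wildtype. Pdgfrb, a PDGF receptor that many fibroblasts also carry, had 42.6 CPM in mutant and 49.2 CPM in wildtype members, Cspg4 12.4 CPM in mutant and 11.3 CPM in wildtype members and Notch3 8.81 CPM in mutant and 8.36 CPM in wildtype members. At least 3 of the 7 were detected in 225 of 885 mutant and 82 of 666 wildtype members. These counts are not thinned, and mutant members had more UMIs. The 7 genes summed to 189 CPM in mutant and 208 CPM in wildtype members. Their part in the results was not tested.

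Genes of the cell cycle were lower in the members than in the rest of the dermis. All 20 G2M genes measured were at least 1.5-fold lower in both libraries, with list medians of -1.47 in the mutant and -1.81 in wildtype. Ube2c, a ubiquitin-conjugating enzyme of mitosis, had 63.9 CPM in mutant members and 231 CPM in the other dermal cells, and 101 CPM in wildtype members and 368 CPM in the other dermal cells. At least 3 of 8 core G2M genes were detected in 13.97% (11.7 to 16.5) of thinned mutant members and 16.1% (12.9 to 19.9) of wildtype members. The same share was 32.5% in mutant and 52.2% in wildtype upper-marker cells, and 6.90% (4.93 to 9.34) in mutant and 20.5% (16.3 to 25.2) in wildtype Aspn-marker cells. Members were below upper-marker cells in both libraries. They were above Aspn-marker cells in the mutant, and in wildtype these 2 classes did not differ beyond counting error. Of 20 S-phase genes, 6 were lower in both libraries and 0 higher, beside 8.51% lower and 14.6% higher over all genes.

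Among the 17 imprinted growth genes, 14 were higher in the members in both libraries and 0 were lower, with medians of 0.82 in the mutant and 1.25 in wildtype. This count and those of the next lists stand beside 14.6% higher and 8.51% lower over all genes. Dlk1, which restrains adipocyte differentiation, had 4792 CPM in mutant members and 1708 CPM in the other dermal cells, and 4664 CPM in wildtype members and 1325 CPM in the other dermal cells. Cdkn1c, an inhibitor of cyclin-dependent kinases, had 6887 CPM in mutant members and 2765 CPM in the other dermal cells, and 6385 CPM in wildtype members and 1937 CPM in the other dermal cells. Of 16 lower-dermis genes, 13 were higher in both libraries and 0 lower, and of 13 upper-dermis genes 9 were lower and 1 higher. Ptn, which encodes the growth factor pleiotrophin, was among the most abundant, with 7684 CPM in mutant members and 1049 CPM in the other dermal cells, and 5229 CPM in wildtype members and 687 CPM in the other dermal cells. Meox2, a homeobox transcription factor, had 59.9 CPM in mutant members and 4.01 CPM in the other dermal cells, and 43.1 CPM in wildtype members and 2.26 CPM in the other dermal cells. Klf4, a zinc-finger factor from the list of fibroblast transcription factors, had 394 CPM in mutant members and 30.7 CPM in the other dermal cells, and 362 CPM in wildtype members and 30.3 CPM in the other dermal cells. Of 15 genes listed for the fat lineage and measured, 8 were higher and 0 lower in both libraries, among them the regulators Ebf2, Ebf3 and Pparg at log2 ratios of 3.33, 3.65 and 2.30 in the mutant and 3.22, 3.39 and 2.19 in wildtype. Fabp4, a lipid-binding protein of fat cells and vessel walls, reached only 4.76 CPM in mutant and 5.67 CPM in wildtype members. Stress genes that dissociation can raise were also higher in the class. Of 15 such genes 9 were higher in the members in both libraries, with Egr1 at 191 CPM in mutant members and 80.2 CPM in the other dermal cells, and 246 CPM in wildtype members and 140.4 CPM in the other dermal cells, and their part in the results was not tested.

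Ligands and receptors set the members apart as well. Wnt2, a Wnt ligand, had 152 CPM in mutant members and 15.4 CPM in the other dermal cells, and 119 CPM in wildtype members and 6.31 CPM in the other dermal cells. Wnt4, another ligand, was among the 15 lowest genes, with 11.4 CPM in mutant members and 119 CPM in the other dermal cells, and 22.8 CPM in wildtype members and 145 CPM in the other dermal cells. Bmp4, a BMP ligand of the upper dermis, had 4.62 CPM in mutant members and 52.7 CPM in the other dermal cells, and 4.82 CPM in wildtype members and 75.5 CPM in the other dermal cells. Fzd4, a Wnt receptor, had 52.99 CPM in mutant members and 3.47 CPM in the other dermal cells, and 31.3 CPM in wildtype members and 2.88 CPM in the other dermal cells. Members were thus higher in Wnt2 and Fzd4 and lower in Wnt4 and Bmp4 than other dermal cells of the same library. Of 16 PDGF and IGF genes 11 were higher and 3 lower in both libraries, and Pdgfra, the PDGF receptor carried by most fibroblasts, was lower at 95.7 CPM in mutant members and 185 CPM in the other dermal cells, and 76.1 CPM in wildtype members and 146 CPM in the other dermal cells. Matrix genes were mixed. Of 25 collagen chains 6 were higher and 7 lower in both libraries, Col6a6 reaching 4.11 in the mutant and 3.73 in wildtype and Col7a1, the anchoring-fibril collagen, -5.09 and -4.84 on the log2 scale. Of 21 elastic-fibre genes 11 were higher and 1 lower. The counts for PDGF and IGF, collagen and elastic-fibre genes stand beside 14.6% higher and 8.51% lower over all genes. The other genes among the 15 lowest were Nrn1 (neuritin), Bcl11a and Irx5 (transcription factors), Has2 (a hyaluronan synthase), Frem1 (a basement-membrane matrix protein), Ctsh (cathepsin H), Cpxm2, Cux1, Stmn2, Ptgfr, Abca8a, Emp2, Aopep and Slitrk6. By the ratio nearer 0 of the 2 libraries Nrn1 was the lowest gene with 100 or more UMIs, with 6.46 CPM in mutant members and 93.1 CPM in the other dermal cells, and 5.81 CPM in wildtype members and 96.02 CPM in the other dermal cells.

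**Figure D3:**
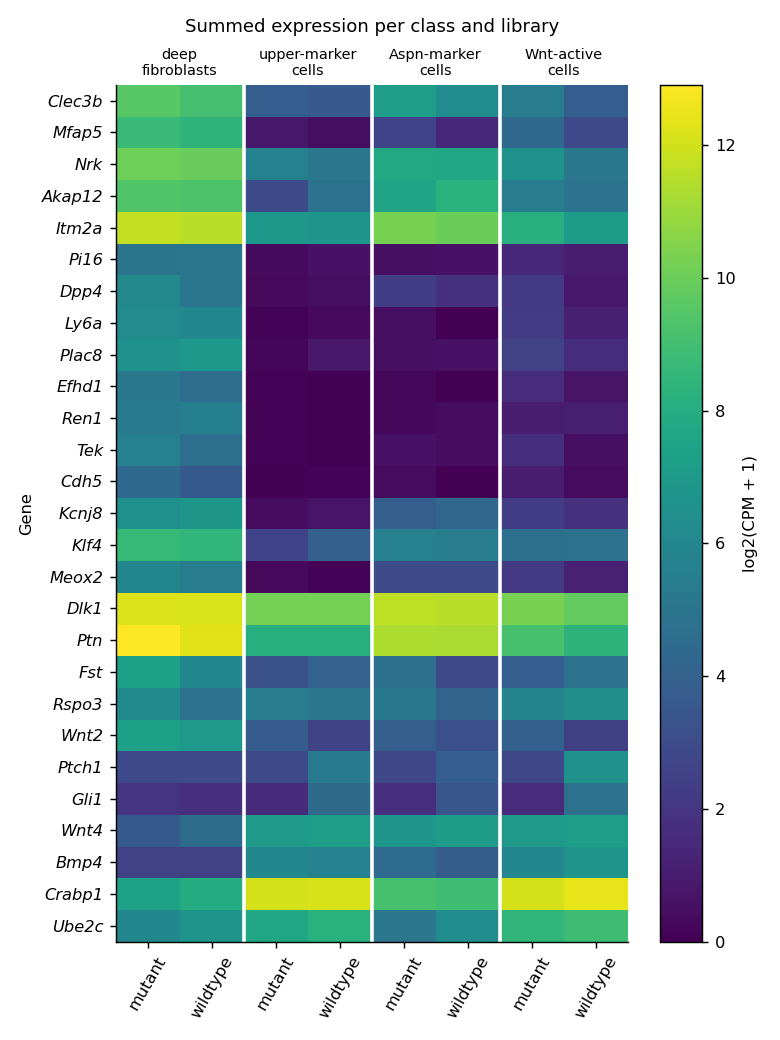
Colour gives log2(CPM + 1) for each gene (down the page) in 4 dermal classes, mutant columns left of wildtype columns. Deep fibroblasts are the brightest class for Pi16, Dpp4, Ly6a, Tek and Cdh5, and Ptch1 is at 6.18 CPM in mutant and 6.95 CPM in wildtype members, against 6.27 and 40.6 CPM in upper-marker cells.

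Between the libraries, the members differed in genes for secreted signalling factors (Fst, Rspo3, Wnt4), for fat-lineage regulators (Ebf2, Ebf3) and for matrix and IGF-binding proteins (Hmcn1, Igfbp2). Of 12719 genes measured, 974 were at least 1.5-fold higher in mutant members (7.66%) and 448 at least 1.5-fold lower (3.52%), with a median of 0.025 on the log2 scale. With 100 or more UMIs, 332 of 9879 genes were higher (3.36%) and 115 lower (1.16%). By the same count, 4.74% of genes were higher and 2.93% lower in upper-marker cells, 3.25% and 2.8% in Aspn-marker cells, and 6.36% and 4.35% in Wnt-active cells. Wls itself, the floxed gene, had 86.7 CPM in mutant and 81.9 CPM in wildtype members, a log2 ratio of 0.081 (-0.063 to 0.23), so its level in these cells was close in both libraries. The 5 defining genes had log2 ratios from 0.076 for Akap12 to 0.48 for Clec3b.

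Fst was the BMP-pathway gene with 50 or more UMIs that differed most. Its product follistatin binds activins and some BMPs. It had 156 CPM in mutant and 64.5 CPM in wildtype members, from 2190 and 455 UMIs, a log2 ratio of 1.27 (1.12 to 1.42). After thinning it was detected in 51.7% (48.2 to 55.2) of mutant and 26.2% (22.2 to 30.6) of wildtype members. Among non-dermal classes it was detected in 6.59% (23 of 349) of mutant and 15.7% (52 of 331) of wildtype muscle cells, 39.1% (61 of 156) of mutant and 27.3% (123 of 451) of wildtype keratinocytes, 0 of 85 of mutant and 0 of 49 of wildtype endothelial cells, and 1.33% (4 of 300) and 4.74% (12 of 253) of macrophages. In upper-marker cells its level was lower in the mutant, at 8.18 against 15.7 CPM, and in Aspn-marker cells it was higher, at 25.7 against 6.08 CPM. The classes therefore went different ways, a difference with no test. Of 23 BMP-pathway genes 5 were higher and 3 lower in mutant members, with a median of 0.20. Over all genes 7.66% were higher and 3.52% lower. Bmper, a secreted BMP-binding protein, had 17.8 CPM in mutant and 10.8 CPM in wildtype members, a ratio of 0.72 (0.35 to 1.11). Bmp2, a ligand, had 9.94 CPM in mutant and 15.3 CPM in wildtype members, a ratio of -0.62 (-0.99 to -0.25).

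Among Wnt genes, the R-spondins, secreted proteins that strengthen Wnt signalling, were higher in mutant members. Rspo3 had 69.4 CPM in mutant and 27.4 CPM in wildtype members, a log2 ratio of 1.34 (1.12 to 1.57), and was detected in 25.2% (22.3 to 28.4) of thinned mutant and 13.5% (10.4 to 16.98) of wildtype members. Among non-dermal classes it was detected in 1.72% (6 of 349) of mutant and 1.51% (5 of 331) of wildtype muscle cells, 7.05% (11 of 156) of mutant and 2.66% (12 of 451) of wildtype keratinocytes, 9.41% (8 of 85) of mutant and 8.16% (4 of 49) of wildtype endothelial cells, and 1.67% (5 of 300) and 2.77% (7 of 253) of macrophages. Rspo1 had 51.1 CPM in mutant and 34.02 CPM in wildtype members, a ratio of 0.59 (0.37 to 0.80). Rspo2 had only 50 UMIs in mutant and 3 in wildtype members, a ratio of 3.06 (1.43 to 5.39) with a wide interval. Rspo1 was also higher in mutant upper-marker cells (1.19), while Rspo3 stood at 0.35 there and at -0.61 in Wnt-active cells. Wnt4 went the other way in members, with 11.4 CPM in mutant and 22.8 CPM in wildtype members, a ratio of -0.997 (-1.32 to -0.67). Of 14 genes for Wnt ligands, R-spondins and their secretion, 4 were higher and 1 lower, with a median of 0.051. Of 10 Wnt targets outside the rule 4 were lower and 1 higher, with a median of -0.29. Both lists stand beside 7.66% higher and 3.52% lower over all genes. Ccn4, a secreted matricellular target, had 18.8 CPM in mutant and 33.3 CPM in wildtype members, a ratio of -0.83 (-1.09 to -0.57). Lgr5, an R-spondin receptor, had 4.40 CPM in mutant and 11.2 CPM in wildtype members, a ratio of -1.35 (-1.85 to -0.85), and was detected in 2.57% (1.60 to 3.91) and 9.19% (6.68 to 12.3) of thinned mutant and wildtype members, against at most 1.72% (6 of 349) and 1.51% (5 of 331) in the 4 non-dermal classes. Aspn-marker cells had Lgr5 more often, in 15.6% (86 of 551) of mutant and 17.2% (57 of 332) of wildtype thinned cells. In upper-marker and Wnt-active cells it was detected in at most 1.58% of mutant and 1.55% of wildtype cells. Bambi, a pseudoreceptor, was the target that was higher, with 31.9 CPM in mutant and 20.1 CPM in wildtype members, a ratio of 0.66 (0.39 to 0.95). The rule itself limits Wnt genes in members. Within that limit Axin2 had 13.5 CPM in mutant and 14.3 CPM in wildtype members and Nkd1 19.4 CPM in mutant and 30.8 CPM in wildtype members, and Lef1 had 3 UMIs in mutant and 2 in wildtype members.

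Of 10 Hedgehog genes measured, 0 were 1.5-fold higher or lower in mutant members, with a median of -0.036, a count near the 7.66% higher and 3.52% lower over all genes. Gli1, a target and factor of the pathway, had 2.98 CPM in mutant and 2.41 CPM in wildtype members, a ratio of 0.31 (-0.54 to 1.21). Ptch1, the receptor and a target, named after its values were seen, had 6.18 CPM in mutant and 6.95 CPM in wildtype members, a ratio of -0.17 (-0.69 to 0.37). In upper-marker cells the same genes were much lower in the mutant. Gli1 there had 1.95 CPM in mutant against 21.1 CPM in wildtype cells, and Ptch1 at 6.27 and 40.6 CPM. The levels in mutant and wildtype members were thus near the low level of mutant upper-marker cells. Of 15 FGF genes 1 was higher and 2 were lower in mutant members. Fgf10, a ligand, had 53.1 CPM in mutant and 36.9 CPM in wildtype members, a ratio of 0.53 (0.32 to 0.73), against -2.67 in upper-marker cells. Spry1, an FGF feedback inhibitor, had 19.8 CPM in mutant and 29.8 CPM in wildtype members, a ratio of -0.59 (-0.85 to -0.32).

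**Figure D4:**
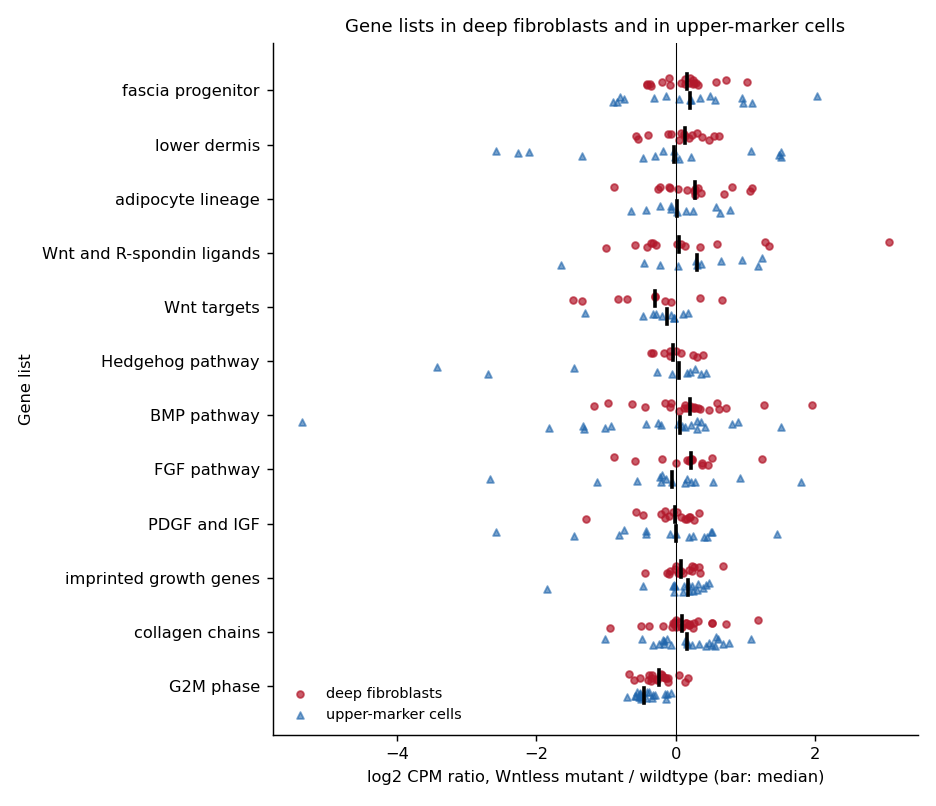
Each point is a gene of 1 of 12 lists, placed by its log2 CPM ratio of mutant over wildtype (x axis) in deep fibroblasts (circles) and upper-marker cells (triangles), with a bar at the median. In the Hedgehog list Gli1 lies at 0.31 in deep fibroblasts, and in upper-marker cells at -3.43.

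Dpp4 and 4 regulators of the fat lineage were higher in mutant members. Of the 20 fascia genes 2 were at least 1.5-fold higher, 0 lower and 18 between, a share near the 7.66% higher and 3.52% lower over all genes, with a median of 0.16. Dpp4 had 65.8 CPM in mutant and 32.3 CPM in wildtype members, a log2 ratio of 1.03 (0.81 to 1.24). Pi16 had 30.6 CPM in mutant and 32.9 CPM in wildtype members, a ratio of -0.10 (-0.34 to 0.13), and Ly6a 72.9 CPM in mutant and 63.4 CPM in wildtype members, a ratio of 0.20 (0.04 to 0.37). Higher Dpp4 was therefore not matched by a 1.5-fold difference in Pi16 or Ly6a. Of the 16 genes listed for the fat lineage 4 were higher and 1 was lower in mutant members, with a median of 0.27. Ebf2, a transcription factor of fat progenitors, had 26.4 CPM in mutant and 12.3 CPM in wildtype members, a ratio of 1.10 (0.76 to 1.45). Ebf3 had 68.97 CPM in mutant and 39.5 CPM in wildtype members, a ratio of 0.80 (0.61 to 0.9996). Pparg, the main regulator of fat-cell differentiation, had 36.6 CPM in mutant and 22.5 CPM in wildtype members, a ratio of 0.70 (0.44 to 0.96), and Cebpa, which acts with it, 8.31 CPM in mutant and 3.97 CPM in wildtype members, a ratio of 1.07 (0.46 to 1.72). Each of the 4 was higher in the mutant with an interval above 0. Sub-clusters of members, described below, were also weighted alike, a setting chosen after seeing the data, and the ratios were then 0.33 for Pparg and 0.54 for Cebpa. Tek had 48.4 CPM in mutant and 24.5 CPM in wildtype members, a ratio of 0.98 (0.74 to 1.23), and Cdh5 20.2 CPM in mutant and 11.6 CPM in wildtype members, a ratio of 0.80 (0.44 to 1.17), which was 0.21 under the same weighting. Both vessel-related genes were higher in mutant members as summed.

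Growth-factor, guidance and matrix genes went both ways between mutant and wildtype members. Igfbp2, an IGF-binding protein, had 13.2 CPM in mutant and 32.2 CPM in wildtype members, a log2 ratio of -1.28 (-1.57 to -0.998). Igf1, the ligand, had 172 CPM in mutant and 255 CPM in wildtype members, a ratio of -0.57 (-0.66 to -0.48), while Ptn had 7684 CPM in mutant and 5229 CPM in wildtype members, a ratio of 0.56 (0.54 to 0.57). Both of these stayed under 1.5-fold. Hmcn1, which encodes the matrix protein hemicentin, had 33.7 CPM in mutant and 96.4 CPM in wildtype members, a ratio of -1.51 (-1.69 to -1.34), against -0.068 in upper-marker and -0.34 in Aspn-marker cells. Members thus showed the wide difference in Hmcn1 that neither of these classes did, without a test of it. Sparcl1, a secreted matrix protein, had 15.8 CPM in mutant and 35.6 CPM in wildtype members, a ratio of -1.17 (-1.43 to -0.90). Col24a1, a fibrillar collagen chain, had 4.12 CPM in mutant and 9.36 CPM in wildtype members, a ratio of -1.18 (-1.72 to -0.65). Of 25 collagen chains 2 were higher and 1 lower, with a median of 0.092, and of 21 elastic-fibre genes 0 were higher and 1 lower. Both counts were near the 7.66% higher and 3.52% lower over all genes. Slit2, a repellent guidance ligand, had 29.97 CPM in mutant and 54.1 CPM in wildtype members, a ratio of -0.85 (-1.06 to -0.65). Sema3a, a semaphorin, had 104 CPM in mutant and 62.7 CPM in wildtype members, a ratio of 0.73 (0.58 to 0.89). Of 24 guidance genes 3 were higher and 3 lower. Hes1, a Notch target, had 29.2 CPM in mutant and 48.1 CPM in wildtype members, a ratio of -0.72 (-0.93 to -0.51). Sox9, a transcription factor of cartilage and tendon progenitors, had 119 CPM in mutant and 65.3 CPM in wildtype members, a ratio of 0.86 (0.71 to 1.01). Of 15 dissociation stress genes 2 were lower and 0 higher in mutant members, with a median of -0.32, and their part in the differences between the libraries was not tested.

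The 15 highest and 15 lowest ratios with 100 or more UMIs held some genes that differed in every class. Lefty1, a secreted antagonist of Nodal, had 126 UMIs in mutant and 0 in wildtype members, at least 21.05-fold higher against a floor of 3 UMIs over the class. It was higher in the mutant in the upper-marker, Aspn-marker and Wnt-active cells too, with 272, 58 and 300 UMIs there in the mutant against 1, 0 and 0 in wildtype. AA465934 and Tpm3-rs7 were lower in the mutant at -4.55 and -3.95, against -4.77 and -4.49 in upper-marker cells. These 3 differences were therefore shared with other dermal classes. Cxcl13, a chemokine that attracts B cells, had 97 UMIs in mutant and 7 in wildtype members, a ratio of 2.80 (1.70 to 4.15), and 1 cell gave 22.7% of the mutant UMIs. Most of its mutant UMIs lay in sub-cluster 4, described below, with 66 in mutant and 1 in wildtype cells. Sub-cluster 1, the largest, had 3 and 1. Dok6, an adaptor of receptor tyrosine kinases, had 15.4 CPM in mutant and 4.25 CPM in wildtype members, a ratio of 1.86 (1.30 to 2.46). Others among the higher genes were Wfdc18, Tbc1d8b, Lhx8, AI506816, Galnt18, Csmd3, Morn2 and 3 histone genes (Hist1h4a, Hist1h2ae, Hist1h4d), with ratios of 1.34 for Morn2 to 2.45 for Wfdc18. Ch25h, cholesterol 25-hydroxylase, had 6.25 CPM in mutant and 18.1 CPM in wildtype members, a ratio of -1.54 (-1.95 to -1.13). Pappa2, a protease that cleaves IGF-binding proteins, had 29.7 CPM in mutant and 68.04 CPM in wildtype members, a ratio of -1.20 (-1.39 to -1.004). The remaining lower genes were Mybpc1, Tmem267, C1qtnf3, Tac1, Sim1 and Cplx2, with ratios of -1.17 for Cplx2 to -1.65 for Mybpc1. Over the sub-clusters with a value, described below, C1qtnf3 was below 0 in 2 of 4 and Tac1 in 3 of 5. Cplx2 was below 0 in 5 of 6, and Mybpc1, Tmem267 and Sim1 in 6 of 6.

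**Figure D5:**
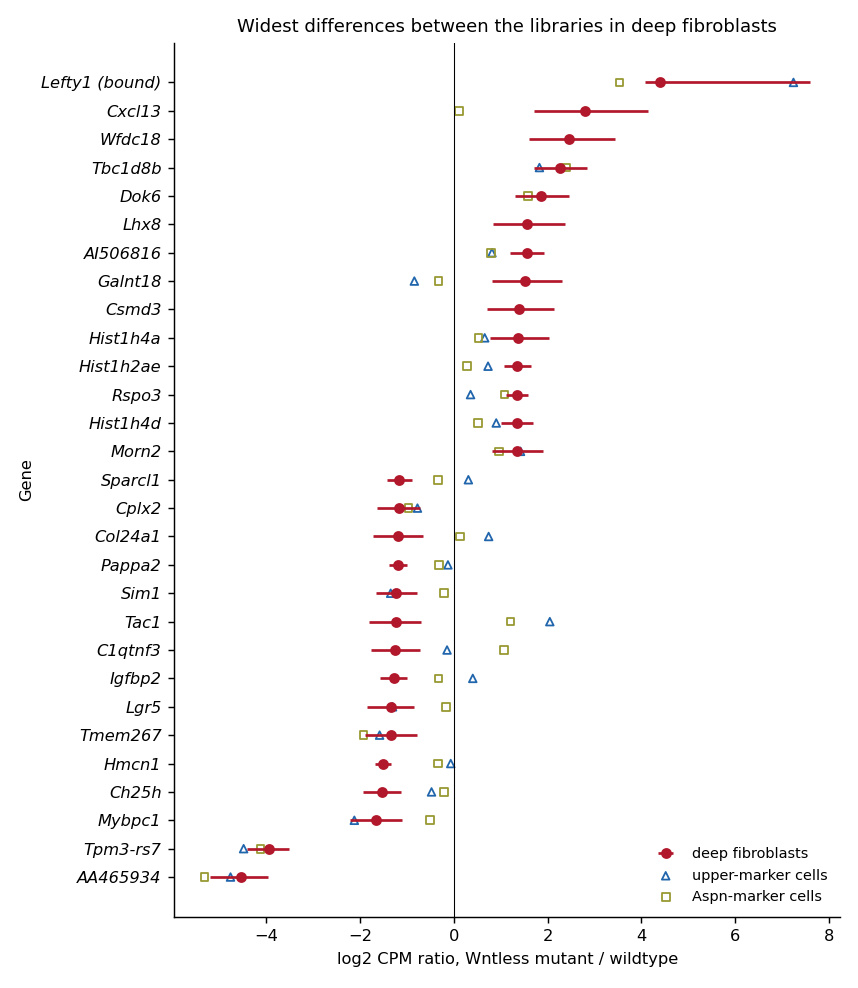
Log2 CPM ratio of mutant over wildtype (x axis) for genes among the 15 highest and 15 lowest, with 95% counting intervals in deep fibroblasts (filled circles) and values for upper-marker (triangles) and Aspn-marker cells (squares) with 20 or more UMIs. Hmcn1 lies at -1.51 in deep fibroblasts and at -0.068 in upper-marker cells, while AA465934 and Tpm3-rs7 are low in all 3 classes.

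The members were not uniform. Leiden clustering of the 1551 members gave 7 sub-clusters, whose leading genes describe them and whose sizes are not compared between libraries. Sub-cluster 1, with 355 mutant and 191 wildtype cells, was led by Pi16, Ptgs1, Ly6a, Dpp4 and Plac8, with Dpp4 at 113 CPM in its mutant cells. Sub-cluster 2, with 144 and 167 cells, was led by Sparcl1, Gas6, Slit3 and Igfbp2. Sub-cluster 3, with 139 and 150 cells, was led by the immediate early genes Atf3, Btg2, Nr4a1 and Fos beside Pax1. Sub-cluster 4, with 120 and 63 cells, was led by Bmper, Rtn1, Mylk and Ptger3 and held Ren1 at 103 CPM in its mutant cells. Sub-clusters 5 and 6 were led by mitotic genes such as Cenpa and by histone genes, and sub-cluster 7, with only 8 and 1 cells, by Slc25a37, a mitochondrial iron carrier, and Mkrn1. Within sub-clusters 1 to 6 the Fst ratio of mutant over wildtype ran from 0.51 to 2.33 and the Rspo3 ratio from 0.89 to 2.20, above 0 in all 6. Igfbp2 ran from -1.09 to -0.48 and Ch25h from -2.70 to -0.96, below 0 in all 6. Hmcn1 was below 0 in 5 of 6 and Dpp4 above 0 in 5 of 6, with ranges of -2.17 to 0.63 and -0.04 to 1.11. The intervals of Fst and Rspo3 lay above 0 in all 6. Those of Igfbp2 included 0 in sub-clusters 4, 5 and 6, and that of Ch25h in sub-cluster 4, where counts were low. The Igfbp2 ratio over all members, -1.28, was wider than in any of the 6. With sub-clusters weighted alike, 7 further ratios named above came under 1.5-fold and kept their direction, at -0.53 for Wnt4, -0.48 for Bmp2, 0.57 for Bmper, 0.42 for Sox9, -0.43 for Hes1, -0.31 for Spry1 and -0.47 for Nkd1. As a mean over cells, another setting, Rspo1 stood at 0.53 and Bambi at 0.52.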

How the data were processed

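The authors deposited UMI counts per gene and cell for each library, which per the file headers came from Cell Ranger 6.1.2, and lists of dermal barcodes. The gene and barcode names in the other deposited files, per the file headers, carry no measurement. The submitters' processing notes name the build mm10 and Seurat, and how the dermal barcodes were chosen is not given in the sources used here. The 2 libraries were prepared in parallel and sequenced together, per the labels.

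Members were found by detected genes, with the members and gene lists chosen when earlier results of these data were known. UMI counts were summed over each class in each library and scaled to CPM. Intervals are exact Poisson for CPM, exact conditional binomial for ratios and Clopper-Pearson for shares, all at 95% and for counting error only. UMIs of 1 library are no replicates. A gene was measured with 20 or more UMIs in members and counted as higher or lower past 1.5-fold. A gene at 0 was set at a floor of 3 UMIs. Thinning drew 9000 UMIs per cell without replacement. The ratio script was tested on simulated data.

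Named genes were the 20 highest and 15 lowest in members over other dermal cells by the ratio nearer 0 of the libraries, the 15 highest and 15 lowest in mutant over wildtype (100 or more UMIs), up to 4 genes of each list with 50 or more UMIs, the 23 rule genes and Wls. Haemoglobin, sex-linked, mitochondrial and ribosomal genes, names starting with Gm or ending in Rik, and genes under 5% of their level in a non-dermal class were left out of the ranked sets. Ptch1, the markers of other cell types, the sex-linked genes and the leading genes of sub-clusters were named outside this rule, after their values were seen. Some ranked, listed or leading genes are left out of the text and not reported here. Scrublet marked 244 of 9065 wildtype and 1 of 10449 mutant barcodes, so it had not worked in the mutant library, and doublets were not removed. An alternative left out the 8% of cells with the highest Scrublet scores. Sub-clusters came from Leiden clustering on 1000 variable genes, 20 components and 15 neighbours at resolution 0.5. Python 3.11.15, numpy 2.4.6, scipy 1.17.1, pandas 2.3.3, scanpy 1.11.5, leidenalg 0.10.2 and matplotlib 3.10.9 were used.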

Additional observations from a re-analysis of the deposited data

Results flagged for a closer look

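For 5 genes the mutant over wildtype ratio in deep fibroblasts had the opposite sign to that in upper-marker cells, both at least 1.5-fold with intervals clear of 0, and the difference between the classes was not tested. The log2 ratio of Fst was 1.27 in deep fibroblasts and -0.94 in upper-marker cells. That of Sox9 was 0.86 in deep fibroblasts and -0.76 in upper-marker cells. Tac1, which encodes the precursor of substance P, stood at -1.25 in deep fibroblasts and 2.05 in upper-marker cells. Its ratio was not uniform within deep fibroblasts, and was below 0 in 3 of the 5 sub-clusters with a value. In sub-cluster 2 the Tac1 ratio was -4.13, from 3 mutant and 43 wildtype UMIs. In sub-cluster 4 it was 2.09 (0.061 to 5.22), from 22 mutant and 2 wildtype UMIs. The collagen gene Col24a1 stood at -1.18 in deep fibroblasts and 0.74 in upper-marker cells. The haemoglobin gene Hbb-y stood at 7.22 in deep fibroblasts and -5.53 in upper-marker cells, and 67.4% of its mutant UMIs in members came from 1 cell. Without members that had at least 1% haemoglobin UMIs its ratio in deep fibroblasts was 0.018.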

How the results depend on the processing

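No paired analysis was possible because each genotype had 1 library and the labels give no replicate numbers that pair them. The mutant share of deep fibroblasts was 19.2% after thinning. With 50 or more UMIs, 548 genes were higher and 222 lower in mutant members, and with no UMI minimum 1945 and 1581. With no minimum, 2766 genes were higher in members than in other dermal cells in both libraries. The other settings run left these shares within the counting interval and the counts within 1.5 times. Of 100 named ratios of mutant over wildtype past 1.5-fold, 25 were no longer past it with sub-clusters weighted alike (a setting chosen after seeing the data), and 11 of 99 after thinning. Dkk1, with 3 mutant and 7 wildtype UMIs, changed sign to 0.69 after thinning and to 0.60 without cycling members, and the cause was not tested. Other scalings moved the median of all genes by at most 0.040 in size on the log2 scale. A single library of each genotype and the lower wildtype depth limit every value here.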

Other observations

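The rule was also met by barcodes outside the authors' dermal lists. They numbered 862 of 5421 such barcodes in the mutant and 726 of 3765 in the wildtype library. Of these, 585 in the mutant and 448 in wildtype had 4 or more markers of another cell type. They were not counted as members, and the remainder were not assigned to a type.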
